A study of Mus musculus with 15 samples.

Results

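EGR1, EGR2 and EGR3, their corepressor NAB2, the repressor GFI1 and the ETS factors PU.1 (gene Spi1) and SPIB were followed in mouse macrophages that carry or lack Junb, with and without lipopolysaccharide (LPS), a bacterial cell wall component. These 7 genes were picked by name from 20145 genes with a probe, of which 14192 passed a filter on dim probes. They were picked with their levels in the 4 genotype by LPS groups in view, so their values are given as a description, with no p-value, and counts of members past the threshold of the fit over all genes support nothing. All 7 had at least 1 probe that passed the filter. Egr3 passed only through the LPS-treated knockout group, the group where it is highest.

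Bone marrow cells were grown in M-CSF for 1 week and plated in wells. Knockout cells were Junb-fl/fl Lyz2-Cre+/+ on a C57BL/6 background, and wild type cells were plain C57BL/6, so the control group carried neither the floxed alleles nor Cre by its labels. Lyz2-Cre is driven by the lysozyme 2 gene of myeloid cells and acts in macrophages, neutrophils and other myeloid cells. Cells of each genotype were mock-treated (4 arrays each) or given LPS at 100 ng/ml, and RNA was taken at 4 h (4 wild type and 3 knockout arrays). The replicates were separate wells, and the labels do not tie wells to animals, so an SE or a p measures the spread between wells.

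EGR proteins are zinc finger activators of the immediate early class, induced within minutes of a stimulus through the ERK kinases and serum response factor, which binds CArG boxes. NAB2 is itself induced by EGR factors and binds them to repress transcription, which closes a feedback loop. GFI1 is a zinc finger repressor that recruits the demethylase LSD1 through CoREST proteins and is needed for neutrophil development. PU.1 sets up the enhancers of the macrophage lineage, and its close relative SPIB binds the same ETS core and is known from B cells and plasmacytoid dendritic cells. EGR2 and EGR1 are known to favour the macrophage over the neutrophil fate in opposition to GFI1, downstream of PU.1.

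In all 15 arrays the 75th percentile of the signal lay between 481.8 and 1490, and 51.0% to 63.2% of probes were well above background. The Junb probe passed background on 8 of 8 wild type arrays (signal 1291 to 2068 without and 4323 to 9574 with LPS) and on 0 of 7 knockout arrays. Lyz2, the locus that holds the Cre insertion, had a signal of 345900 to 448200 on wild type arrays but only 868.7 to 3793 on those of the knockout. The Y-linked genes Ddx3y and Eif2s3y were well above background on all 7 knockout arrays and on no wild type array, and Xist was so on the 8 wild type arrays and on no knockout array. The Y-linked genes Uty and Kdm5d separated less cleanly, with some wild type arrays well above background. The brighter Uty probe gave 207.7 to 1347 in the knockout and 14.61 to 122.7 in wild type. Kdm5d gave 30.72 to 87.77 in the knockout and 0.5846 to 1184 in wild type. Slide 1 carried the knockout arrays and slide 2 those of wild type. Slide, sex of the cells and genotype therefore cannot be told apart in any comparison of the genotypes, and the same holds for LPS and the column on the slide. The 7 macrophage markers with a usable probe, Csf1r and Adgre1 among them, were well above background in every group. Their signals over the array's 75th percentile summed to 843 to 979 without and 1080 to 1610 with LPS in wild type arrays. In the knockout the sums were 470 to 1280 without and 1250 to 1640 with LPS. Csf1r spread widely in the untreated knockout (log2 mean 6.86, SD 3.56). Fewer cells of a type and less RNA per cell cannot be told apart in such bulk samples.

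The sequences shown are examples of the windows that hold a searched motif, chosen for the binding sites of EGR, GFI1 and serum response factor, and they are not all such matches. RefSeq promoter windows, from 250 bases before to 50 bases after each start, were used for 4 of the 7 genes (Gfi1, Spib, Egr2 and Nab2; build GRCm38.p6), and were searched on both strands. The motifs were AP-1 (TGANTCA), EGR (GTGGGCG and GGGGGCG), the PU.1 core (GAGGAAG), the GFI1 core (AAATCNC), the NF-kB site and the CArG box. Each sequence below runs 5′ to 3′ along its gene's strand, and capitals mark the match.
Egr2 start 1, EGR site, chr10:67535457-67535486 (plus strand): tgcaatcctccCGCCCACgtgcaccgacgg
Egr2 start 2, CArG box, chr10:67537484-67537513 (plus strand): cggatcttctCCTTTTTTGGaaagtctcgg
Egr2 start 3, CArG box, chr10:67537787-67537816 (plus strand): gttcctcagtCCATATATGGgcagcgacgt
Spib, NF-kB site and GFI1 core, chr7:44532088-44532321 (minus strand): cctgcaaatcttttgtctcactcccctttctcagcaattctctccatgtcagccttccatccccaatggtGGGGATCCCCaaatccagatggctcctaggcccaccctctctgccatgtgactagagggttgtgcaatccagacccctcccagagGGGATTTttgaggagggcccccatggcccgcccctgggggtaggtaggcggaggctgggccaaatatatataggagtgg

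The EGR match of Egr2 lies on the opposite strand, 31 bases before its first start. The Spib window holds the NF-kB match 180 bases and the GFI1 core, on the opposite strand, 95 bases before the start. Of 32851 promoters in the table, 7.97% hold GTGGGCG, 11.7% the GFI1 core, 4.51% the NF-kB site and 1.63% a CArG box. The AP-1 motif, the site that JUNB binds with its partners and one found in 7.81% of promoters, is in none of the 9 windows of these 4 genes. A match is a description of the letters, and no match says only that these letters are not in that window.

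Levels are log2 of the probe's signal over the 75th percentile of its array, with values below -4.52 set to that floor, so 0 means a signal at the 75th percentile. They order one gene across arrays and do not order one gene against another.

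Gfi1 (chr5:107716655-107725805, GRCm38.p6) had the widest range over the 4 groups among the 7 genes. In untreated wild type cells its level was -1.32, -1.15, -1.59 and -0.96 in replicates 1 to 4, and with LPS it was 3.85, 3.48, 3.76 and 3.37. Untreated knockout cells had -2.98, -2.34, -3.02 and -3.13, and LPS-treated knockout cells 5.68, 5.26 and 5.58 in replicates 2 to 4. No 2 of the 4 groups overlapped, and the order from low to high was untreated knockout, untreated wild type, LPS-treated wild type and LPS-treated knockout. The knockout thus held both the lowest and the highest values. All 15 values were well above background, though untreated knockout signals were only 77.9 to 294.5.

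With LPS the Gfi1 level was higher by 4.87 ± 0.19 (SE, n = 4 and 4) in wild type and by 8.37 ± 0.21 (n = 4 and 3) in knockout cells, or 29.3-fold and 331-fold. The response was larger in the knockout by 3.50 ± 0.28. Part of that lies in the untreated cells, where the knockout was lower by 1.61 ± 0.19 (difference -1.61), and part in the LPS-treated cells, where it was higher by 1.89 ± 0.21. With normexp background correction the untreated difference was -0.98, and the difference of the responses was 2.80.

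Egr2 (chr10:67534469-67542188), a factor also known from alternative macrophage activation, showed the same order of groups. Its level was 1.07, 2.20, 1.97 and 1.88 in untreated and 3.55, 3.21, 3.65 and 3.03 in LPS-treated wild type cells. The knockout had 0.59, 0.74, 0.90 and -0.03 without LPS. With LPS its means were 5.01 ± 0.14 (SD, n = 3) in the knockout, from 4.84 to 5.10, and 3.36 ± 0.29 (SD, n = 4) in wild type. Again no 2 groups overlapped, although replicate 1 of untreated wild type, at 1.07, came close to the highest untreated knockout array, at 0.90.

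The LPS response of Egr2 was 1.58 ± 0.25 in wild type (2.99-fold) and 4.46 ± 0.27 in knockout cells (22.0-fold), a difference of 2.88 ± 0.36. Untreated knockout cells stood at -1.23 ± 0.25 against wild type, and LPS-treated ones at 1.65 ± 0.27. The deposited value table, whose normalisation method is not given in the sources used here, gave a difference of the responses of 1.61 and genotype differences of -0.79 and 0.82. The direction was the same.

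Egr1 (chr18:34861207-34864956), the founding member of the EGR family, did not follow Egr2. Its level ranged from -0.57 to 0.25 in untreated wild type and from -0.42 to 0.27 in untreated knockout arrays, and the groups overlapped. With LPS it ranged from 3.06 to 3.55 in wild type and from 2.77 to 3.07 in the knockout, and the groups overlapped by 1 array (3.07 against 3.06). It was higher with LPS by 3.41 ± 0.19 (10.6-fold) in wild type and 2.91 ± 0.21 (7.52-fold) in the knockout. The difference of the responses was -0.50 ± 0.28, with the sign opposite to that of Egr2.

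Egr3 (chr14:70077317-70082613) was hardly detected. It was well above background on 0 of 8 wild type arrays, on 2 of 4 untreated knockout arrays and on 3 of 3 LPS-treated knockout arrays, where the signal was 24.35 to 34.21. All but 2 arrays sat at the floor. On the floored levels the LPS-treated knockout stood at 0.19 ± 0.10 against LPS-treated wild type, and the groups overlapped. No fold is given for Egr3, since it passed the filter only through the LPS-treated knockout.

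Nab2 (chr10:127660918-127666703) was measured by 2 probes. On the brighter one, wild type levels ran from 2.02 to 2.75 without and from 3.78 to 4.02 with LPS, and knockout levels from 1.84 to 2.24 and from 4.13 to 4.30. The responses were 1.64 ± 0.15 and 2.21 ± 0.16, and they differed by 0.56 ± 0.22. On the dimmer probe the responses were 1.93 ± 0.22 and 1.97 ± 0.23, a difference of 0.04 ± 0.32. Both probes were higher with LPS in both genotypes, but they disagree on the genotype: with LPS the knockout stood at 0.30 ± 0.16 on the brighter and at -0.29 ± 0.23 on the dimmer probe. The mean over both probes gives 0 for that comparison.

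**Figure D1:**
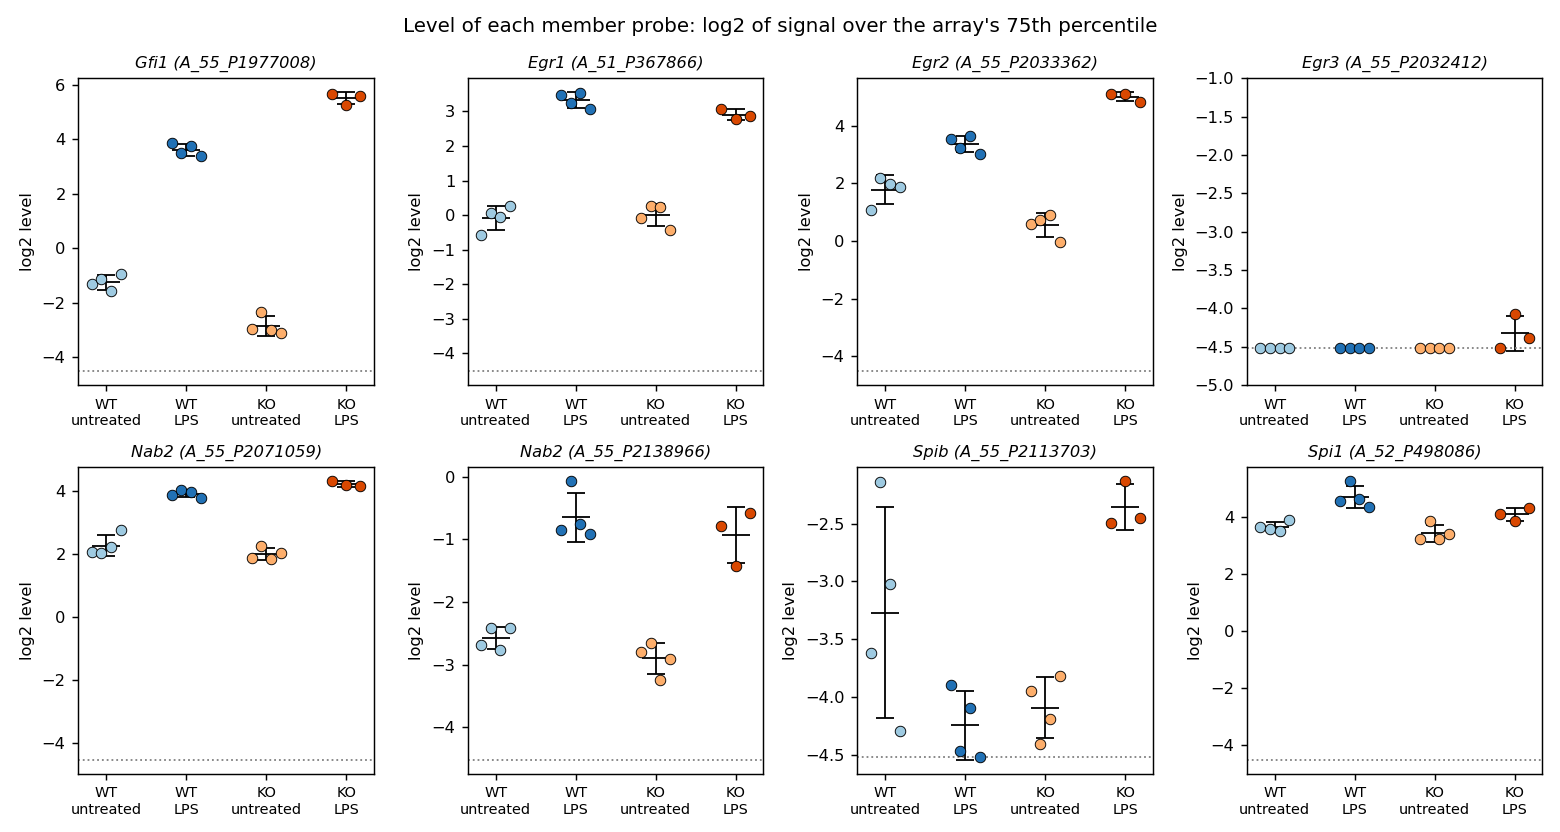
Log2 level of each member probe (vertical axis, log2 of signal over the array's 75th percentile; the dotted line is the floor) in the 4 groups; each point is an array and the bars are the mean ± SD of 4 arrays (3 for LPS-treated knockout). Gfi1 and Egr2 are lowest in untreated knockout and highest in LPS-treated knockout cells, Egr1 is alike in both genotypes to within overlapping ranges, and Spib is high in LPS-treated knockout and in some untreated wild type arrays. Vertical scales differ between panels.

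Spib (chr7:44525995-44532087), the PU.1 relative, was dim throughout, and its difference between LPS-treated and untreated cells had opposite signs in the 2 genotypes. In untreated wild type cells its level was -3.62, -2.14, -3.02 and -4.30, and with LPS -3.90, -4.47, -4.10 and -4.52. The untreated knockout had -3.95, -4.41, -4.19 and -3.82, and the LPS-treated knockout -2.49, -2.13 and -2.45. The last group lay above both groups of its LPS and genotype contrasts, while replicate 2 of untreated wild type, at -2.14, reached into its range. Its signal was 111.5 to 131.8 in the LPS-treated knockout, and wild type cells with LPS gave 17.03 to 62.13, where 3 of 4 arrays were well above background.

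The wild type response of Spib was -0.98 ± 0.35, with overlapping groups, and the knockout response 1.74 ± 0.37 (3.34-fold). The difference of the responses was 2.72 ± 0.51, and with LPS the knockout was higher by 1.89 ± 0.37. Size depended on the background correction: with normexp the responses were -0.46 and 0.73, the difference of the responses 1.19 and the genotype difference with LPS 0.94. The deposited value table gave a difference of the responses of 1.85.

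Markers of the cells that SPIB and GFI1 are best known from were read beside these values. Summed over the 8 B cell markers the scaled level was 46.3 to 79.5 without and 77.1 to 108 with LPS in wild type arrays, and 87.4 to 124 without and 145 to 164 with LPS in the knockout. It was highest in the LPS-treated knockout, as Spib was, but also higher in untreated knockout than in untreated wild type cells, as Spib was not. Blnk, an adaptor that macrophages also express, had mean log2 levels of 6.03, 6.44, 6.69 and 7.29 in these 4 groups and makes up most of the sum. Cd79b, a part of the B cell receptor, had -1.10, -4.07, -0.97 and -2.98, lower with LPS in both genotypes. The defining B cell markers Pax5 and Pou2af1 were well above background on no array. The 6 plasmacytoid dendritic cell markers summed to 164 to 227 without and 156 to 361 with LPS in wild type arrays. In the knockout they summed to 114 to 190 without and 190 to 258 with LPS. Siglech had the highest mean log2 level of the 6 in every group, from 7.17 to 7.54. In the 4 groups as ordered for Blnk, Tcf4 had 3.96, 5.32, 3.9 and 4.64, and Ccr9 -3.44, -1.5, -4.44 and -2.16. With LPS both were lower in the knockout than in wild type, where Spib was higher in the knockout. Ly6d and Bcl11a were hardly detected in either genotype. Each was well above background on 0 untreated and 1 LPS-treated wild type array, and on no knockout array. Of 11 neutrophil markers, 10 had a usable probe. Without LPS their sum was 10.8 to 17 in wild type and 7.59 to 8.72 in the knockout. With LPS it was 52.6 to 71.3 in wild type and 19.6 to 22.4 in the knockout, where Gfi1 was highest. S100a8 is the largest part of that sum, with mean log2 levels of 2.84, 5.58, 2.31 and 3.82 in the 4 groups as ordered for Blnk. S100a9 had -1.44 and -0.47 in wild type and lay at the floor in both knockout groups. The markers did not move as one. Mmp8 had 2.28, 2.43, 0.78 and 0.31, Elane -1.01, -1.02, -1.06 and -1.03, and Ltf -3.40, -3.14, -3.49 and -2.64. The neutrophil genes S100a8, Elane, Camp and Mmp8 were well above background on all arrays, and Mpo and Cxcr2 on none. The part of other cells in the Spib and Gfi1 values was not tested.

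Spi1 (chr2:91082374-91115759), which encodes PU.1, varied least among the well-measured members. It read 3.66, 3.59, 3.52 and 3.92 in untreated and 4.58, 5.28, 4.64 and 4.37 in LPS-treated wild type cells. The knockout had 3.25, 3.88, 3.23 and 3.43 without and 4.11, 3.88 and 4.33 with LPS. Every LPS-treated wild type array lay above every untreated one, whereas the knockout groups met at 3.88. The responses were 1.04 ± 0.20 (2.06-fold) and 0.66 ± 0.21 (1.58-fold), a difference of -0.38 ± 0.29. With LPS the knockout was below wild type, at -0.61 ± 0.21, with no overlap, which is the opposite sign to Spib. The size of the responses rests on the scaling: quantile normalisation gave 0.44 and 0.23, normexp 0.30 and 0.21, and the values deposited by the authors 0.34 and 0.17.

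**Figure D2:**
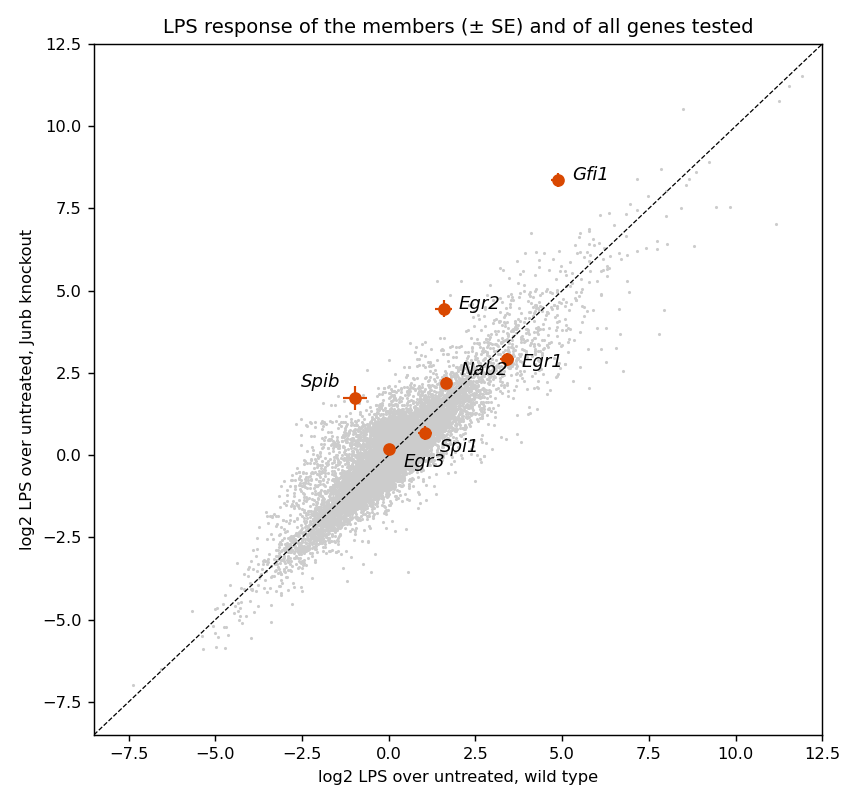
LPS response (log2 LPS over untreated) in knockout (vertical) against wild type (horizontal) for the 14192 genes tested (grey) and the 7 members (orange, ± SE); the dashed line marks equal responses. Gfi1 (4.87 and 8.37), Egr2 (1.58 and 4.46) and Spib (-0.98 and 1.74) lie above the line, and Egr1 (3.41 and 2.91) and Spi1 (1.04 and 0.66) just below it.

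The counts over the 7 members stand beside those over all genes, from limma with Benjamini-Hochberg adjustment over all 14192 genes at 0.05. In wild type, 5 members were higher with LPS and 1 (Spib) lower, and 60.5% of all genes passed, 34.9% higher and 25.5% lower. The groups did not overlap in 5 members and in 52.6% of all genes. In the knockout, 6 were higher and 0 lower, and 59.9% of all genes passed (32.5% higher, 27.5% lower). Here 5 members and 65.5% of all genes had no overlap. The share of the called genes that were higher was 57.8% and 54.2% here, and fell to 41.6% and 36.7% with quantile normalisation, 41.4% and 36.9% with normexp and 42.5% and 35.1% in the deposited value table. A difference of the responses passed the threshold in 3 members, all larger in the knockout (Gfi1, Egr2 and Spib), beside 10.1% of all genes, 2.9% larger and 7.15% smaller. Untreated knockout cells were lower in 2 members (Gfi1 and Egr2), and 17.7% of all genes passed (11.9% higher, 5.83% lower). The same 2 members and 21.0% of all genes had no overlap. With LPS, 3 members were higher (Gfi1, Egr2 and Spib) and 1 lower (Spi1), and 30.8% of all genes passed (13.6% higher, 17.1% lower). For this contrast 5 members and 42.0% of all genes had no overlap. The same contrasts served to choose the members, so nothing is read from these shares. Without LPS-treated knockout replicate 3, the count of all genes whose response differed was 931 in place of 1427, and the count that differed by genotype with LPS was 2867 in place of 4365.

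Over the 15 arrays, Gfi1 followed Nab2 (Pearson r = 0.98), Egr2 (0.96) and Egr1 (0.94), and Spib followed the other members less closely, from 0.54 with Egr3 and 0.51 with Egr2 down to -0.21 with Spi1. These are descriptions, since the arrays fall into 4 groups of shared treatment and slide. Among all genes tested, those with the highest correlation with Gfi1 were Cdc42ep4 (0.997), Foxp4 (0.996) and Trip13 (0.994). The response of Foxp4, a forkhead factor, was 1.95 ± 0.12 in wild type and 3.29 ± 0.13 in the knockout, and that of Trip13, a mitotic ATPase, 2.28 ± 0.15 and 3.80 ± 0.16. For Egr2 the highest were Penk (0.978), which encodes proenkephalin, Artn (0.976) and Phldb1 (0.976). The response of Penk was 0.98 ± 0.19 and 2.76 ± 0.20. For Spib they were the olfactory receptor genes Olfr884 (0.885) and Olfr1039 (0.883) and the granzyme gene Gzmf (0.880), all with mean levels between -4.49 and -2.36, close to the floor.

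The partners and targets of these factors were read from 8 gene lists, with the members left out of them. A gene is said to have risen or fallen only where it passed the limma test over all genes. The median response of all genes tested was 0.14 in wild type and 0.19 in the knockout, and the median difference of the responses was -0.06. Of all genes tested, 34.9% rose and 25.5% fell in wild type, and 32.5% rose and 27.5% fell in the knockout. The response differed in 10.1%, larger in the knockout in 2.9% and smaller in 7.15%. Each list count stands beside these shares, and no list was tested as a set.

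Of the EGR family, NAB and the ERK to serum response factor route, 15 of 16 genes were tested. In wild type 8 rose, 2 fell and 5 did not pass (median 0.38), and in the knockout 8 rose, 3 fell and 4 did not pass (median 0.45). Map3k8, the kinase that couples LPS receptors to ERK, rose by 2.70 ± 0.15 in wild type, and the ribosomal S6 kinase gene Rps6ka1 fell by 2.17 on the log2 scale. The response differed in 2 genes, both smaller in the knockout (median difference -0.19). Rps6ka3, another S6 kinase, rose by 2.20 and 0.92, a difference of -1.28 ± 0.21 (adjusted p = 0.00141). In the deposited value table the wild type rise of Rps6ka3 was 0.41 (adjusted p = 0.716) with a difference of 0.36, and Map3k8, at 2.12, lost its call (adjusted p = 0.053).

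The immediate early genes, the class to which Egr1, Egr2 and Egr3 belong, mostly rose: 14 of 17 tested rose and 2 fell in wild type (median 2.25), and 13 rose and 1 fell in the knockout (median 2.10). Fosl1, a FOS family gene, rose by 4.59 ± 0.18 in wild type. The response was smaller in the knockout in 5 genes and larger in 2, a count of 7 that went to 4 when LPS-treated knockout replicate 2 or 3 or LPS-treated wild type replicate 2 was left out and to 2 in the deposited value table. The nuclear receptor gene Nr4a1 rose by 4.34 and 2.87 (difference -1.46 ± 0.29, adjusted p = 0.0062, and 0.0614 in the deposited value table), and Nr4a2 by 2.32 and 0.96 (difference -1.36 ± 0.20, adjusted p = 0.000625). For both, the difference lay mainly in untreated cells, where the knockout was higher by 1.26 ± 0.20 and 1.64 ± 0.13. With LPS the knockout stood at -0.20 ± 0.20 and 0.29 ± 0.14 against wild type, and neither passed. The stress factor gene Atf3 rose by 1.39 in wild type and stood at -0.01 in the knockout (difference -1.41 ± 0.18, adjusted p = 0.000313). Klf2, which restrains inflammatory genes, fell by 1.06 in wild type and stood at 0.02 in the knockout (difference 1.08 ± 0.23, adjusted p = 0.0087).

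Most of the known EGR targets rose in both genotypes. Of 16 tested, 14 rose and 0 fell in wild type (median 1.31), and 12 rose and 0 fell in the knockout (median 0.97). The response differed in 2, both smaller in the knockout, and did not pass in 14, beside 10.1% of all genes that differed (7.15% smaller). F3, which encodes tissue factor, rose by 9.43 ± 0.13 and 7.55 ± 0.15 (difference -1.87 ± 0.20, adjusted p = 4.85e-05). Thbs1, which encodes thrombospondin 1, rose by 4.01 ± 0.20 and 1.26 ± 0.22 (difference -2.76 ± 0.30, adjusted p = 6.32e-05). The median difference over the 16 genes was -0.29.

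GFI1's paralog and corepressors went both ways: of 11 tested, 4 rose and 2 fell in each genotype (medians -0.01 and 0.03). The CoREST gene Rcor2 rose by 2.05 ± 0.14 in wild type. Its relative Rcor3 changed by -0.21 ± 0.19 in wild type and -1.53 ± 0.21 in the knockout, a difference of -1.32 ± 0.28 (adjusted p = 0.00936). Gfi1b, the paralog known from erythroid and megakaryocyte cells and a gene that GFI1 represses, fell by 1.49 in wild type and stood at 0.02 ± 0.20 in the knockout, a difference of 1.51 ± 0.27 (adjusted p = 0.00286). Gfi1b lost its call with quantile normalisation (adjusted p = 0.0525) and in the deposited value table (adjusted p = 0.116), where Rcor3 lost its own (adjusted p = 0.0551).

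Of the genes that GFI1 is known to repress, 15 of 16 were tested. In wild type 8 rose and 1 fell (median 0.49), and in the knockout 5 rose and 2 fell (median 0.33). The response was smaller in the knockout in 5 genes and larger in 1, Gfi1b, with a median difference of 0.03, and 3 were called in the deposited value table. Irf8, the factor that pairs with PU.1 in monocytes and macrophages, changed by 0.49 ± 0.14 in wild type and -2.24 ± 0.15 in the knockout, a difference of -2.72 ± 0.20 (adjusted p = 2.72e-06). The wild type change of Irf8 turned to -0.21, -0.42 and -0.36 with quantile normalisation, with normexp and in the deposited value table. Il7r, the interleukin 7 receptor gene, changed by 0.37 ± 0.20 and -1.40 ± 0.21 (difference -1.76 ± 0.29, adjusted p = 0.00178, and 0.152 in the deposited value table). Socs1, an inhibitor of cytokine signalling, rose by 6.50 ± 0.18 in wild type, and its difference of the responses was 0.50 ± 0.26.

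The other ETS family factors had 12 of 13 genes tested. In wild type 7 rose and 4 fell (median 0.93), and in the knockout 7 rose and 3 fell (median 0.71). Ets2 rose by 3.54 ± 0.14 in wild type, and Fli1 fell by 1.98. The response differed in 3 genes, all smaller in the knockout, and in 5 without untreated wild type replicate 4. The repressor gene Etv3 rose by 1.70 ± 0.15 in wild type cells, whereas in knockout cells it fell by 0.54, and the responses differed by -2.25 ± 0.22 (adjusted p = 2.74e-05). Ets1 rose by 1.76 and 0.88 (difference -0.89 ± 0.15, adjusted p = 0.00185). Its level was higher by 0.72 ± 0.10 in untreated knockout than in untreated wild type cells, and with LPS the genotypes did not differ past the threshold (-0.17 ± 0.11). Spic, the other member of the PU.1 subfamily and known from red pulp macrophages, rose by 1.41 ± 0.15 and 0.58 ± 0.16. Its difference of -0.82 ± 0.22 (adjusted p = 0.0322) has the opposite sign to that of Spib, and its adjusted p was 0.0661 with quantile normalisation, 0.144 with normexp and 0.162 in the deposited value table. Spic also lost its call when any 1 of 9 of the 15 arrays was left out.

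All 15 partners and opponents of PU.1 were tested. In wild type 10 rose and 2 fell (median 0.65), and in the knockout 10 rose and 3 fell (median 0.95). Ikzf1, which encodes Ikaros, rose by 3.03 ± 0.18 in wild type. Cebpa, a myeloid factor that works beside PU.1, fell by 3.38 in wild type cells and fell by 4.57 with Junb deleted (difference -1.18 ± 0.23, adjusted p = 0.00551). Myb, a factor of progenitor cells, changed by 0.30 ± 0.15 in wild type and rose by 1.62 ± 0.17 in the knockout (difference 1.32 ± 0.23, adjusted p = 0.00228). Together with Irf8, described above, these were the 3 genes of the list whose response differed.

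Among PU.1 targets, 23 of 24 genes were tested. In wild type 12 rose and 2 fell (median 0.38), and in the knockout 10 rose and 2 fell (median 0.51). The response differed in 3, all smaller in the knockout, with a median difference of 0.06. The Fc receptor gene Fcgr3 rose by 1.54 ± 0.15 in wild type and stood at 0.25 ± 0.16 in the knockout (difference -1.29 ± 0.21, adjusted p = 0.00168). Fcgr1 rose by 2.75 ± 0.15 and 1.96 ± 0.17, and its difference of -0.79 ± 0.23 (adjusted p = 0.0396) lost its call when any 1 of 13 of the 15 arrays was left out. The integrin gene Itgam fell by 0.62 in wild type (adjusted p = 0.0417), but the mean over its 3 probes gave 0.36, and the call was lost when any 1 of 9 arrays was left out.

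Array quality weights, which give noisier arrays less say, moved most of these list counts upward. With them the response differed in 5 genes of the EGR, NAB and ERK route, 7 EGR targets, 4 of the GFI1 paralog and corepressor list, 8 other ETS factors, 8 PU.1 partners and 6 PU.1 targets. In the deposited value table, the EGR, NAB and ERK route had 5 genes called in each genotype's LPS response and 1 in the difference, 7 PU.1 partners were called in the knockout response, and 0 genes of the GFI1 paralog and corepressor list differed in their response (1 with quantile normalisation). Among probes well above background on all arrays, 4 immediate early genes differed.

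**Figure D3:**
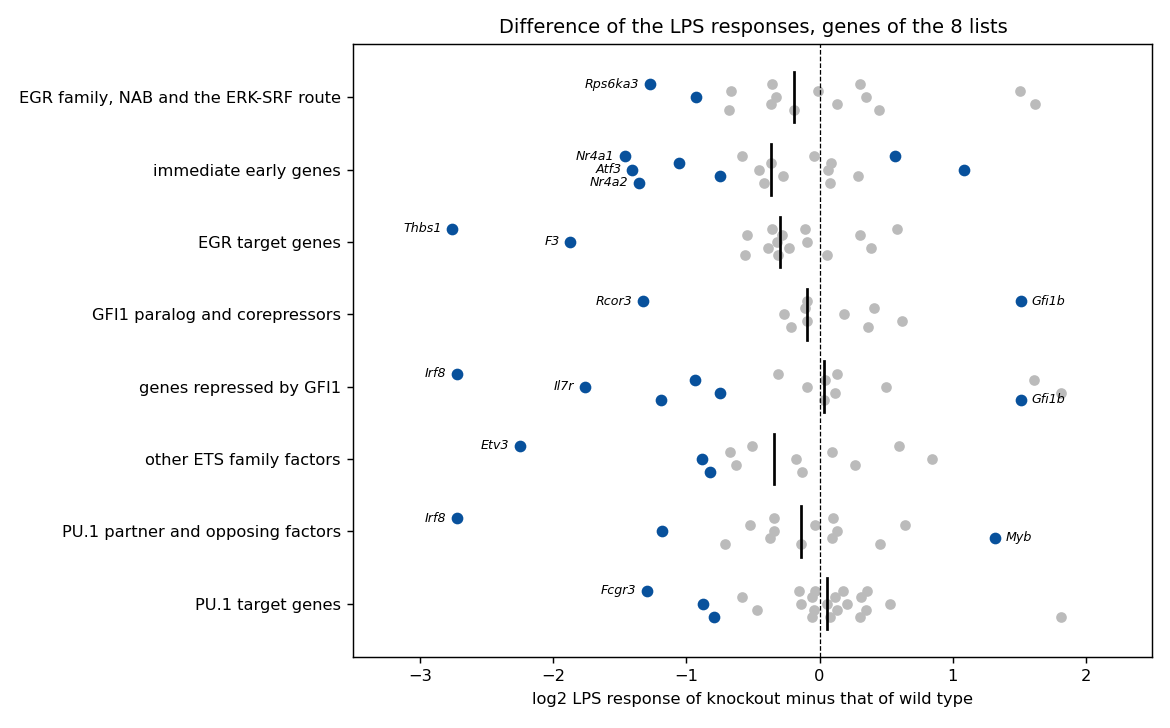
Difference of the LPS responses (knockout minus wild type, log2; horizontal axis) for every tested gene of the 8 lists; dark points passed the limma test over all genes at an adjusted p under 0.05, grey points did not, and the black line is the list's median. Irf8 and Thbs1 lie farthest to the left (-2.72 and -2.76), and Gfi1b (1.51) farthest to the right among the genes that passed.

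**Figure D4:**
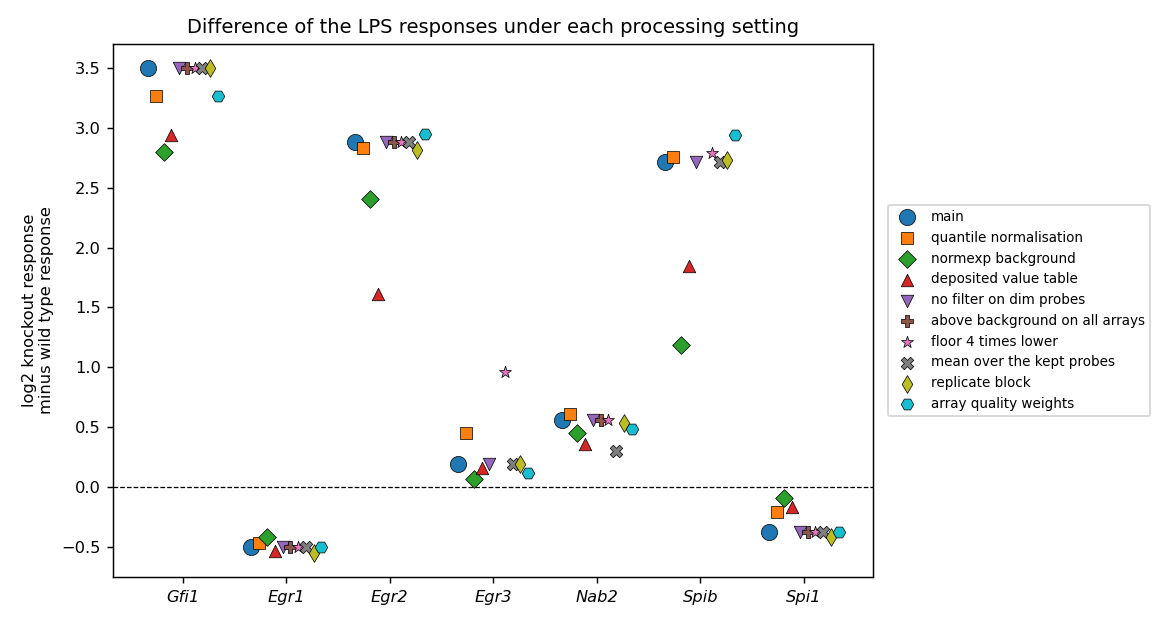
Difference of the LPS responses (knockout minus wild type, log2; vertical axis) of each member under the main processing (blue circles) and each alternative setting. Gfi1, Egr2 and Spib are above 0 under every setting shown, from 2.80, 1.61 and 1.19 upwards, and Egr1 and Spi1 are below 0.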

How the data were processed

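Gene expression was measured on 15 single-colour Agilent mouse arrays (Cy3, amplified RNA). The intensities are the deposited scanner output of Agilent Feature Extraction 10.7.3.1, whose processed signal is background-subtracted, per the file headers (array design on mm9). The deposited value table holds log2 values by the authors with medians of 6.25 to 6.27, and its method is not given in the sources used here. It covers 50378 of 59305 features.

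Each signal was divided by its array's 75th percentile, set to a floor of 0.0436 and log2-transformed. Spots flagged as outliers (4827 over the 15 arrays) were set missing, which left 0.318% of the values of the genes tested missing. The fit leaves out such an array for that probe. Probes that passed Agilent's above-background flag on 3 or more arrays of a group were kept (32507 of 55681), and a gene took its brightest kept probe. Names came from RefSeq accessions through a GRCm38.p6 gene table, used for names and locations. limma 3.58.1 in R 4.3.3 fitted 4 group means, with Benjamini-Hochberg adjustment at 0.05, and was tested on simulated data. Figures used matplotlib 3.10.9 in Python 3.11.15.

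The members and the gene lists were chosen with earlier results of these data known. Genes named in lists are up to 3 with the largest called difference of the responses and the largest called rise and fall in wild type. Some items are not reported here, though counts over lists include all genes tested. Levels are relative to an array-wide scaling. The number of arrays limits the precision. The NF-kB pattern was narrowed to the standard consensus after a first look. Array weights, scaling, background correction, filter, floor, probe choice, a replicate block and leaving out each array were tried.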

Additional observations from a re-analysis of the deposited data

Results flagged for a closer look

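For the member probes and the list genes named by the rule above, 105 groups of 4 arrays were checked for a single array far from the rest. In this check 1 was found, where chance flags about 1 in 20. Fli1 was 4.3 in untreated wild type replicate 1, below the other 3 arrays of its group. Other list genes were not checked, and some spread widely in untreated knockout arrays, such as Csf1r (SD 3.56), Mrtfb (2.42) and Meis1 (2.32). Over all genes tested, untreated knockout replicate 3 strayed most from its group mean (SD of the deviations 0.638).

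The LPS response differed between the genotypes by the interaction test of limma in 18 of the list genes named. Larger responses in the knockout were those of Gfi1b (1.51), Myb (1.32) and Klf2 (1.08). Smaller responses among transcription factors were those of Irf8 (-2.72), Etv3 (-2.25), Nr4a1 (-1.46), Atf3 (-1.41), Nr4a2 (-1.36), Cebpa (-1.18), Ets1 (-0.89) and Spic (-0.82). The corepressor gene Rcor3 stood at -1.32, and the kinase gene Rps6ka3 at -1.28. Receptor and effector genes with smaller responses were Thbs1 (-2.76), F3 (-1.87), Il7r (-1.76), Fcgr3 (-1.29) and Fcgr1 (-0.79). Slide, sex of the cells and genotype cannot be told apart in these differences.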

How the results depend on the processing

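Over all genes, the count whose response differed went from 1427 to 527 in the deposited value table and 4501 with array weights, the count that differed in untreated cells from 2515 to 1164 and 5192, and the count that differed with LPS from 4365 to 2588 in the table. The table covers fewer genes (11894), and otherwise the cause was not tested. Leaving out 1 array gave 8002 to 8753 (LPS in wild type), 7658 to 8800 (LPS in knockout), 931 to 1932 (difference of the responses), 1728 to 2874 (untreated) and 2867 to 4957 (with LPS). Some responses turned sign. The wild type response of Irf8 was -0.21, -0.42 and -0.36 with quantile normalisation, with normexp and in the table. The difference of the responses was 0.36 for Rps6ka3 in the table, and the wild type response of Itgam was 0.36 as the mean of its probes. The differences of Gfi1, Egr2 and Spib kept their signs. Leaving out 1 array moved no member's value by more than its spread between replicates, in all 525 such values, and 51 of 305 moved under the other settings. Signal over background limits Egr3 and Spib most.

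The groups share replicate numbers in the labels. Arrays with the same number had deviations from their group means that correlated between -0.535 and 0.563 over the pairs of groups. In the 2 LPS-treated groups all 3 same-numbered pairs were above 0.1 (0.135 to 0.446). In LPS-treated wild type and untreated knockout all 4 were above 0 (0.021 to 0.355), beside -0.259 to 0.18 for pairs with other numbers. In the other pairs of groups some or all were below 0. Some shared structure by replicate number therefore remains possible. The fit without the block was kept, and the block was tried as an alternative. With the replicate block, 8441 and 8383 genes responded to LPS, 1117 differed in their response, and 2201 and 3990 differed by genotype without and with LPS. Spic and Fcgr1 lost their call under the block (adjusted p = 0.0703 and 0.0749) and Ets2 gained one (adjusted p = 0.0217).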
